A study of Mus musculus with 7 samples.

Results

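The genes described here are 10 genes of chromatin proteins, 7 of the high mobility group (HMG) families (*Hmgb1*, *Hmgb2*, *Hmgb3*, *Hmgn1*, *Hmgn2*, *Hmgn3* and *Hmga1*) and 3 of histone H2A variants (*H2afz*, *H2afx* and *H2afv*). They were listed by name and family with earlier results of these data known, so the number of them that differ with cycling is a description and not independent evidence. All 10 are listed in each of the 7 libraries, among 20839 genes listed in any library and 14052 listed in all of them. Single cells of the thymus of C57BL/6 mice, sorted as EpCAM+ CD45-, were captured in droplets and sequenced. Each library was made from 3 pooled thymi, so it is 1 pool and mice within it cannot be told apart. The Aire trace library came from mice of 6 weeks with the alleles Aire-CreERT2-R26-CAG-Stopfl-zsGreen, in which *Aire* regulatory sequence drives the inducible Cre and marks *Aire*-expressing cells and their descendants, given 2 mg tamoxifen on alternate days over 10 days. Mice of the 2 isotype control libraries received 100 µg of a control antibody 3 times within a week and were collected at week 2 (4 weeks of age) or week 10 (12 weeks of age). Mice of the 4 anti-RANKL libraries received the same number and amount of an antibody that blocks RANKL, a cytokine that medullary thymic epithelial cells (mTECs) need to mature, and were collected at weeks 2, 4, 6 and 10, at 4, 6, 8 and 12 weeks of age. Age and time after treatment therefore cannot be told apart.

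HMG proteins are small, abundant proteins that bind DNA or nucleosomes with little sequence preference. HMGB proteins bend DNA through HMG boxes, HMGN proteins bind to the nucleosome core and loosen the hold of linker histone H1, and HMGA proteins bind the minor groove of AT-rich DNA through AT-hooks. Histone variants replace the standard histones in some nucleosomes. H2A.Z, encoded by *H2afz* and *H2afv*, sits around the start sites of genes, and H2A.X, encoded by *H2afx*, is phosphorylated beside DNA breaks. The thymic medulla holds, among other cells, mTECs that express *Ccl21a*, a chemokine that draws developing T cells, and mTECs that express *Aire*, which turns on tissue-restricted antigens. A part of the medullary epithelium divides in the adult thymus and renews the tissue.

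A level below is the mean, over cells, of a gene's unique molecular identifiers (UMIs, which label captured RNA molecules before amplification, so that each molecule counts as 1) per 10000 UMIs of the cell. It is a share of the RNA of a cell, and cells were weighted alike, so its expected value is the same at every depth. Cells were used if no UMI of *Ptprc*, the gene of CD45, was found and if they held at least 2000 UMIs, which kept 8048 of 8453 cells (658 to 1340 a library). Cells were graded by how many of 8 cycle genes (*Top2a*, *Birc5*, *Cdk1*, *Ube2c*, *Cenpf*, *Nusap1*, *Ccna2* and *Mki67*) had a UMI. In total 5653 cells had none and are called non-cycling, 1725 had 1 to 2, and 670 had 3 or more and are called cycling. *Aire*-high cells had *Aire* above 1.5 and *Ccl21a* not above 4 on the deposited natural log scale, *Ccl21a*-high cells had *Ccl21a* above 4 and *Aire* not above 1.5. Only 39 cells passed both limits and were used in neither class.

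Median depth per library lay between 4299.5 and 16809 UMIs a cell, and 50 cell barcodes occurred in more than 1 library. The 7 TEC markers were all detected in non-cycling and in cycling cells of all 7 libraries, with *Epcam* at 4.89 to 13.1 UMIs per 10000. Of 17 T cell markers, 12 to 14 were above 0 in non-cycling cells, at a summed 0.323 to 0.737 UMIs per 10000, and 7 to 13 in cycling cells, at 0.254 to 3.54. *Trac*, *Trbc1* and *Trbc2* are listed in no library. Cycling cells were 15.3% and 15.8% of cells in the isotype controls at weeks 2 and 10, 6.9% in the Aire trace library, and 2.11%, 1.57%, 4.56% and 11.3% at weeks 2, 4, 6 and 10 after anti-RANKL. With the cycle genes counted after each cell was thinned to 2000 UMIs, these shares were 4.34%, 5.61%, 2.88%, 0.76%, 0.746%, 1.37% and 3.92% in the same order. For the thinned shares, exact Clopper-Pearson 95% intervals, which hold counting error and nothing else, ran from 3.23 to 5.7% and from 4.4 to 7.04% in the controls and from 0.358 to 1.37% at week 4.

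Of the 10 genes, only *Hmgn3* and *H2afx* share a chromosome. *Hmgb1* lies on chromosome 5, *Hmgb2* on 8, *Hmgb3* on X, *Hmgn1* on 16, *Hmgn2* on 4, *Hmgn3* and *H2afx* on 9, *Hmga1* on 17, *H2afz* on 3 and *H2afv* on 11 (mm10). The annotation names 13 pseudogenes after *Hmgb1*, and 1 each after *Hmgb3* and *Hmgn2*, so reads of these genes that also match a copy may have been lost in counting. Of the 10 genes, 8 have a promoter in RefSeq (GRCm38.p6, the release of mm10), *H2afz* and *H2afv* under the newer symbols *H2az1* and *H2az2*. The promoters of 4 genes are shown because the results turn on them, the 250 bases before the start in each case: *Hmgb2* and *H2afz*, which differed most with cycling beside *H2afx*, and *Hmgb1* and *Hmgn1*, which also differed between *Aire*-high and *Ccl21a*-high cells. Capitals mark CCAAT, a box bound by the factor NF-Y, and TTTGAA, the cell cycle genes homology region found in many promoters of late cell cycle genes, each on either strand (ATTGG and TTCAAA).
*Hmgb2* (chr8:57511593-57511842, plus strand): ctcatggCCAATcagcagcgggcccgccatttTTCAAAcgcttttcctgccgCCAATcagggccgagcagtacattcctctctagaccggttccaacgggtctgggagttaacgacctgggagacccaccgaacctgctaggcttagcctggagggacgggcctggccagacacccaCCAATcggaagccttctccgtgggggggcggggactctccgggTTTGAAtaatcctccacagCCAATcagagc
*H2afz* (chr3:137864237-137864486, plus strand): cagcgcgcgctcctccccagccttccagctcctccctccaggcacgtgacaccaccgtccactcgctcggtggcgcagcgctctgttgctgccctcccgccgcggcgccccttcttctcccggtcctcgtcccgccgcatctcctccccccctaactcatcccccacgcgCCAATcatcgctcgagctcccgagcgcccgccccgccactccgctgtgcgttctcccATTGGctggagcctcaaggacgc
*Hmgb1* (chr5:149053058-149053307, minus strand): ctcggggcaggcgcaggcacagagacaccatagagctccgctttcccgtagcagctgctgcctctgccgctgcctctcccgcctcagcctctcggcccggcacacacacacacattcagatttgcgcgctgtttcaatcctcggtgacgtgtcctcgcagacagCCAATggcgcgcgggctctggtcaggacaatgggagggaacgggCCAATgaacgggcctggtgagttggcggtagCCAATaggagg
*Hmgn1* (chr16:96127726-96127975, minus strand): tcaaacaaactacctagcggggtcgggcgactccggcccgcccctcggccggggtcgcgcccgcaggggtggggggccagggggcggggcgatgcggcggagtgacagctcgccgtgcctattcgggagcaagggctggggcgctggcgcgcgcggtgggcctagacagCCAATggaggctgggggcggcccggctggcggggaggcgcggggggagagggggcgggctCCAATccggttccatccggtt
The *Hmgb2* window held 4 CCAAT and 2 TTTGAA, of which 1 TTTGAA began 30 bases before the start. Of all 32851 promoters of this length in the table, 33.8% held a CCAAT, 0.84% held 4 or more, 16% held a TTTGAA and 1.8% held 2 or more. The windows of *H2afz* and *Hmgn1* held 2 CCAAT each (10.1% of all promoters held 2 or more) and no TTTGAA. The *Hmgb1* window shown held 3 CCAAT (2.79% held 3 or more), and a second *Hmgb1* promoter in the table held neither motif. *Hmgb3* had 3 CCAAT and 1 TTTGAA and *H2afv* 4 and 1, while *Hmgn2* and both promoters of *Hmga1* had neither. A match describes letters only and is not a site of binding.

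Over all cells used, *Hmgb1* was the highest of the 10 genes at 8.38 ± 1.81 UMIs per 10000 (SD, n = 7 libraries), followed by *H2afz* at 7.26 ± 2.38 and *Hmgn1* at 5.16 ± 1.03. UMIs count molecules, so no length enters these levels. The ranges of these neighbours overlapped (6 to 10.9 for *Hmgb1*, 4.87 to 10.2 for *H2afz*, 3.63 to 6.54 for *Hmgn1*). *H2afz* lay above *Hmgb1* in both controls (9.22 and 10.2 against 6 and 7.03). *Hmgb1* lay above *Hmgn1* in both controls (from 6 against up to 4.54) and in the 4 anti-RANKL libraries (from 6.98 against up to 6.54). *Hmgn2* (2.55 ± 0.603), *Hmgb2* (2.47 ± 1.04), *Hmgn3* (2.12 ± 0.542) and *H2afv* (1.64 ± 0.201) had lower means. *Hmgn2* (up to 3.76) and *Hmgb2* (up to 3.88) reached into the range of *Hmgn1*, neighbours in this order overlapped, and *H2afv* (1.42 to 1.91) stayed below *Hmgn2* (from 1.95). *H2afx* (0.501 ± 0.15) and *Hmgb3* (0.484 ± 0.109) came next and overlapped. *Hmga1* was at 0.116 ± 0.0714 and stayed under the limit of 0.2 UMIs per 10000 for testing in all comparisons, so 9 of the 10 genes were tested.

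The first comparison asked how the 10 genes differ between cycling and non-cycling cells of the same library. *Hmgb2*, an HMGB protein known to follow proliferation, had the largest difference of the 9 tested genes. Its level in non-cycling cells was 1.23 in the Aire trace library, 1.25 and 1.23 in the week 2 and week 10 controls, and 1.07, 0.812, 1.08 and 1.08 at weeks 2, 4, 6 and 10 after anti-RANKL. In cycling cells it was 17.2, then 13.4 and 16.9, then 14.3, 21.5, 13.7 and 18.3 in the same order. The lowest cycling value lay far above the highest non-cycling value, and the ratio within a library ran from 10.7 to 26.5. The limma estimate was 3.77 ± 0.13 on the log2(level + 0.1) scale (SE, adjusted p = 2.09e-09, limma with Benjamini-Hochberg adjustment over 5755 genes).

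*H2afz*, the main H2A.Z gene, was at 4.16 to 5.74 UMIs per 10000 in non-cycling cells (median 4.88, 7 libraries) and at 19.2 to 33.7 in cycling cells (median 25). The groups did not overlap and the ratio was 4.25 to 5.9 within a library. The log2 difference was 2.36 ± 0.08 (adjusted p = 2.09e-09). *H2afx* rose from 0.245 to 0.379 in non-cycling cells to 1.57 to 4.21 in cycling cells, a log2 difference of 2.66 ± 0.14 (adjusted p = 1.01e-07). For these 2 variants and *Hmgb2* no library's cycling cells fell into the non-cycling range, which also held for *Hmgn2*, *Hmgb1*, *Hmgb3* and *H2afv*. The share of all genes whose ranges stood apart was not counted in this or the other comparisons of cell classes.

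Among the HMGN genes, *Hmgn2* rose from 1.57 to 2.36 in non-cycling cells to 6.48 to 11.3 in cycling cells, with ratios of 3.83 to 5.46 (log2 difference 2.09 ± 0.08, adjusted p = 7.25e-09). *Hmgn1* rose less, from 3.31 to 6.47 to 6.29 to 10.3, and its 2 ranges overlapped, although the cycling cells were higher in 7 of 7 libraries (0.69 ± 0.10, adjusted p = 0.00023). *Hmgn3* was at 1.46 to 2.74 in non-cycling and at 1.78 to 2.83 in cycling cells. Its difference of 0.20 ± 0.10 did not pass the test (adjusted p = 0.118, 95% interval -0.02 to 0.42). The 3 HMGN genes thus ran from a rise of over 2 on the log2 scale to a difference within the error.

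*Hmgb1* and *Hmgb3* rose from very different levels. The ratio within a library was 2.11 to 3.38 (median 2.63) for *Hmgb1* and 2.12 to 4.23 (median 3.05) for *Hmgb3*. *Hmgb1* went from 4.84 to 10.6 UMIs per 10000 in non-cycling cells to 13.1 to 27.7 in cycling cells (1.39 ± 0.09, adjusted p = 4.34e-07), and *Hmgb3* from 0.251 to 0.665 to 0.72 to 1.53 (1.37 ± 0.11, adjusted p = 3.08e-06). Neither gene's ranges overlapped. *H2afv*, the second H2A.Z gene, went from 1.32 to 1.82 to 1.83 to 6 (0.94 ± 0.13, adjusted p = 0.000155), with the week 4 library highest. Its ranges were apart by less than 0.01. *Hmga1* was at 0.0375 to 0.21 in non-cycling and 0.0716 to 0.425 in cycling cells, higher in 6 of 7 libraries, and its ranges overlapped. In non-cycling cells *Hmga1* was at 0.152, 0.181 and 0.21 at weeks 2, 4 and 6 after anti-RANKL against 0.0375 to 0.0661 in the other 4 libraries.

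**Figure D1:**
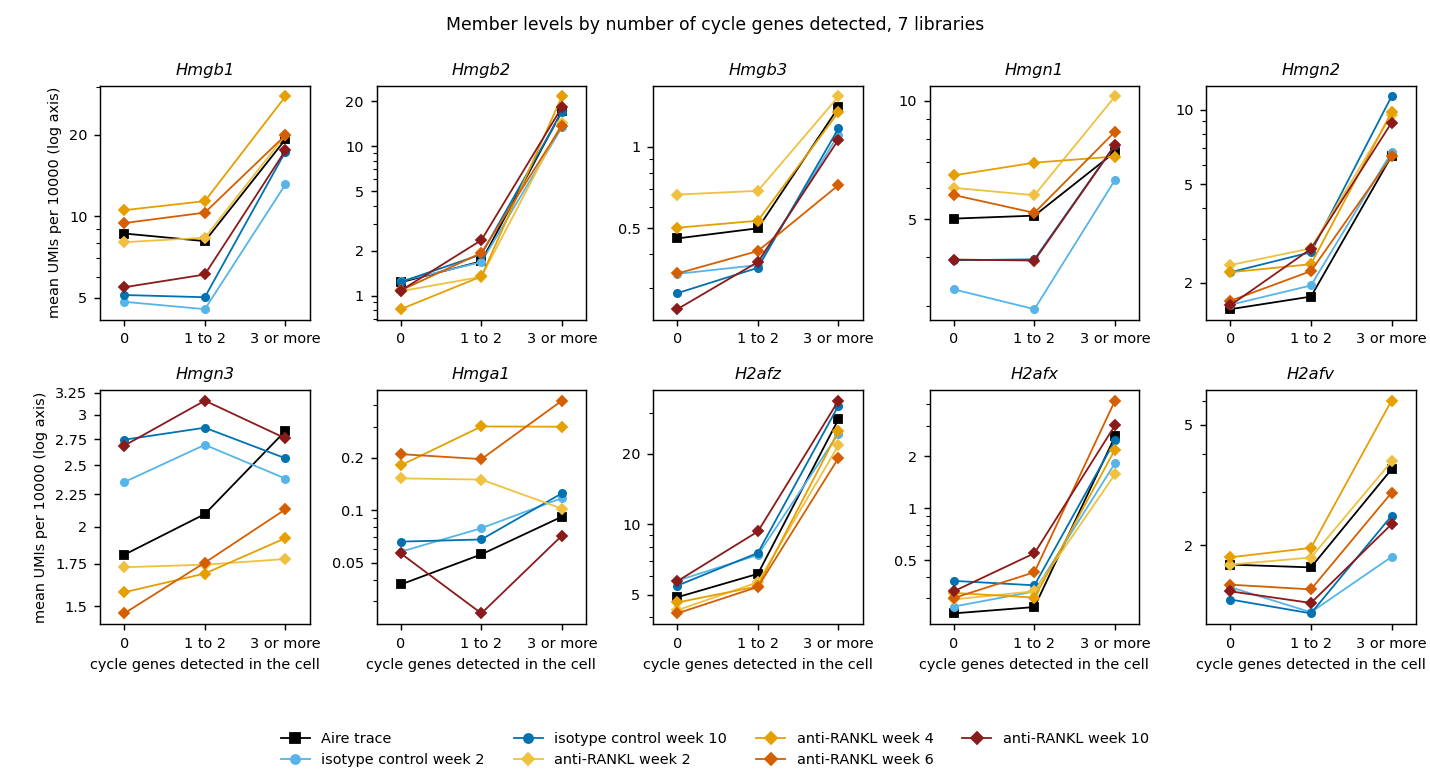
Mean UMIs per 10000 (log axis) of the 10 genes in cells with 0, 1 to 2 and 3 or more cycle genes detected, with 1 line per library (7 libraries, colours as in the key). *Hmgb2*, *H2afz*, *H2afx* and *Hmgn2* rise steeply at 3 or more in every library, while the lines of *Hmgn3* stay between 1.46 and 3.16.

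In all, 8 of the 9 tested genes were higher in cycling cells and none lower. Over all tested genes, 21.1% were called higher and 26% lower (limma, adjusted p under 0.05), and the median difference was -0.05 against 1.39 for the 9 genes. Cycling cells were also the deeper ones, with a median of 10328 to 30773 UMIs against 4218.5 to 13066 in non-cycling cells, and in fibroblast markers they were lower, at 0.4 to 2.74 against 2.59 to 7.63 summed UMIs per 10000, in all 7 libraries. The part of the fibroblast markers in the result was not tested. Without cells above 2 times the median UMIs of their library 8 genes were higher, and with cycle genes counted at 2000 UMIs 8 were higher too. The summed T cell markers were higher in cycling cells in 3 of 7 libraries, with 3.54 UMIs per 10000 at week 4 after anti-RANKL, 1.39 at week 6 and 1.26 at week 10. With cells holding any T cell marker UMI left out, all 9 genes were higher, *Hmgb2* by 3.68 and *H2afz* by 2.34, and *Hmgn3* passed at 0.34 (adjusted p = 0.0454).

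For several of the genes the level rose with each further cycle gene. *Hmgb2* was at 1.11 ± 0.153 UMIs per 10000 (SD, n = 7 libraries) in cells with none, 1.41 ± 0.273 with 1, 3.81 ± 1.26 with 2, 9.55 ± 3.37 with 3 to 4, 15.5 ± 2.98 with 5 to 6 (n = 6) and 24.1 ± 6.06 with 7 to 8. *H2afz* took the same steps at 4.99 ± 0.661, 5.99 ± 1, 10.3 ± 2.49, 18.4 ± 5.71, 27.5 ± 5.71 and 33.2 ± 4. *Hmgb2*, *H2afz*, *H2afx*, *Hmgn2* and *Hmgb3* had higher means at each of the 5 steps. Single libraries could fall at a step. *Hmgb3* at week 6 after anti-RANKL was at 0.455 with 1 cycle gene, 0.202 with 2, 0.737 with 3 to 4 and 0.236 with 5 to 6. The number of cycle genes detected also depends on the depth of a cell. *H2afv* was no higher with 1 or 2 cycle genes (1.5 ± 0.337 and 1.48 ± 0.224) than with none (1.56 ± 0.192), and reached 2.42 ± 1.02 with 3 to 4. *Hmgb1* and *Hmgn1* did not rise from 0 to 1 cycle gene (7.45 ± 2.29 and 7.37 ± 2.62, 4.92 ± 1.21 and 4.67 ± 1.35). From cells with none to cells with 7 to 8, the ratio of the means was 21.7 for *Hmgb2*, 12.4 for *H2afx*, 6.65 for *H2afz*, 5.48 for *Hmgn2*, 3.74 for *Hmgb3*, 3.14 for *Hmgb1*, 2.63 for *H2afv* and 1.69 for *Hmgn1*. *Hmgn3* ended where it began, with a ratio of 0.982.

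**Figure D2:**
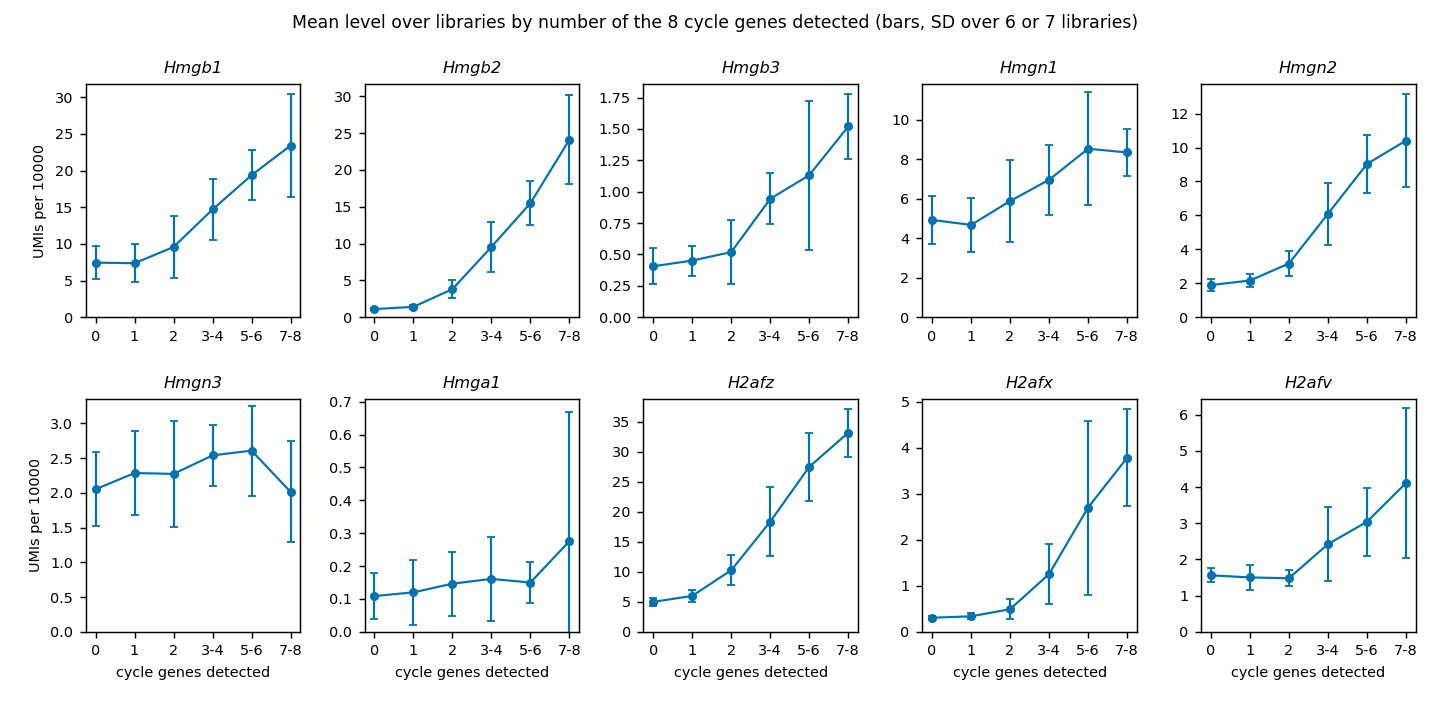
Mean level over libraries (UMIs per 10000, linear axis from 0) against the number of the 8 cycle genes detected in a cell, bars showing the SD over 6 or 7 libraries with at least 5 cells. *Hmgb2* climbs from 1.11 to 24.1 and *H2afz* from 4.99 to 33.2, while *Hmgn3* stays between 2.01 and 2.61.

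Cells with 1 to 2 cycle genes were compared with cells that had none, which asks whether the genes move in cells that the limit of 3 leaves out. *Hmgb2* was at 1.34 to 2.35 against 0.812 to 1.25, higher in 7 of 7 libraries with no overlap (0.60 ± 0.08, adjusted p = 0.0017). *H2afz* (0.40 ± 0.05, adjusted p = 0.0014) and *Hmgn2* (0.30 ± 0.07, adjusted p = 0.0163) were also higher in all 7 libraries, with overlapping ranges. *Hmgn3* passed at 0.15 ± 0.04 (adjusted p = 0.0406), a call lost under 12 of the 16 alternatives, among them leaving out the Aire trace library, either control, or the week 6 or week 10 anti-RANKL library. With these 4, 44.4% of the 9 tested genes were higher, against 7.09% of all 5857 genes tested, and none was lower against 8.76%. *Hmgb1* (0.03 ± 0.04) and *Hmgn1* (-0.03 ± 0.04) did not pass the test at full depth. Cells with 1 to 2 cycle genes were deeper in 7 of 7 libraries, at a median of 5619 to 18895 UMIs against 4218.5 to 13066. Without cells above 2 times the median UMIs *Hmgn2* was no longer called (0.22, adjusted p = 0.0989). With cycle genes counted at 2000 UMIs, *H2afx* (1.24, adjusted p = 0.000981), *Hmgb3* (0.64, adjusted p = 0.00743), *Hmgb1* (0.63, adjusted p = 0.00253), *Hmgn1* (0.31, adjusted p = 0.00982) and *H2afv* (0.27, adjusted p = 0.0139) were called higher too, and *Hmgn3* was not (adjusted p = 0.256). Counted so, the week 2 control had 49 cycling cells against 173 at full depth. Cells with 3 or more cycle genes at full depth had thus entered the lower grades, and their part in the added calls was not tested.

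The same question was put to cells without any cycle gene, graded by 12 genes of DNA replication and its control (*Mcm2*, *Mcm3*, *Mcm5*, *Mcm6*, *Rrm2*, *Tyms*, *Ccne2*, *Cdc6*, *Clspn*, *Gmnn*, *E2f1* and *Uhrf1*). Cells with 3 or more of them (12 to 50 a library) were compared with cells that had none (264 to 911 a library) in the 6 libraries with at least 10 such cells. The week 6 library, with 7, was left out. *H2afz* was at 5.76 to 11.3 against 3.85 to 5.5 over all 7 libraries (0.72 ± 0.13 in the 6, adjusted p = 0.0065) with no overlap. *Hmgb2* (0.80 ± 0.18, adjusted p = 0.0161), *Hmgn2* (0.62 ± 0.16, adjusted p = 0.028) and *Hmgb3* (0.61 ± 0.16, adjusted p = 0.0312) were higher too. These were 4 of 9 tested genes, against 5.03% of 5841 genes called higher and 5.99% lower. *H2afx* was not called (0.26 ± 0.19, adjusted p = 0.425). No call was left without the cells above 2 times the median depth, where *H2afz* was at 0.55 (adjusted p = 0.0599), and cells with replication genes were deeper, at a median of 8680 to 19915 UMIs against 4672 to 11086.5 in the 6 libraries. *H2afz* was called without each library in turn. It was the only call left without the week 10 control or without the week 10 anti-RANKL library. *Hmgn2* was also lost without the week 2 control or the week 2 or week 4 anti-RANKL library, and *Hmgb3* without the Aire trace or the week 2 anti-RANKL library.

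The second main comparison set *Aire*-high against *Ccl21a*-high cells, both without a cycle gene, and asked whether the genes differ between these kinds of mTEC. *Hmgb1* and *Hmgn1* were lower in *Aire*-high cells in all 7 libraries. *Hmgb1* in *Aire*-high cells was at 3.62 in the Aire trace library, 2.58 and 2.61 in the controls, and 2.96, 5.99, 4.88 and 2.81 at weeks 2, 4, 6 and 10 after anti-RANKL. In *Ccl21a*-high cells it was at 9.59, 7.95 and 9.06, and 9.18, 11.1, 10.8 and 8.64 in the same order. The groups were apart, with the lowest *Ccl21a*-high value above the highest *Aire*-high value (log2 difference -1.42 ± 0.11, adjusted p = 5.37e-07, limma over 5715 genes). *Hmgn1* was at 1.3 to 4.11 in *Aire*-high and 5.55 to 7.26 in *Ccl21a*-high cells (-1.42 ± 0.15, adjusted p = 8.78e-06).

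*Hmgb3* was at 0.0943 to 0.313 in *Aire*-high and 0.392 to 0.892 in *Ccl21a*-high cells, again with no overlap (-1.16 ± 0.17, adjusted p = 0.000109). *H2afv* was lower in 6 of 7 libraries, all but the Aire trace library (-0.66 ± 0.13, adjusted p = 0.000986). *Hmgn3*, another nucleosome-binding HMGN gene, went the other way. It was at 4.1 in *Aire*-high cells of the Aire trace library, 2.61 and 2.93 in those of the controls and 3.88, 3.75, 1.95 and 3.21 after anti-RANKL. In *Ccl21a*-high cells it lay between 1.2 and 1.54 in all 7 libraries (1.11 ± 0.13, adjusted p = 1.47e-05), and the groups were apart.

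*H2afz* was at 4.38 to 6.52 in *Aire*-high and 4.06 to 5.04 in *Ccl21a*-high cells, higher in 6 of 7 libraries (0.29 ± 0.10, adjusted p = 0.0284). That call was lost without the Aire trace, week 2 control, week 6 or week 10 anti-RANKL library, with adjusted p from 0.0545 to 0.0929. *Hmgb2* (0.17 ± 0.13, 95% interval -0.13 to 0.46; called at 0.29, adjusted p = 0.0429, without the week 2 anti-RANKL library), *Hmgn2* (-0.10 ± 0.12, -0.36 to 0.17) and *H2afx* (-0.14 ± 0.15, -0.47 to 0.18) did not pass the test. With *Aire* above 2 and *Ccl21a* above 5, which left 6 libraries, *Hmgn2* was called lower at -0.37 (adjusted p = 0.0079). *Hmga1* was lower in *Aire*-high cells of all 7 libraries, at 0.00628 to 0.243 against 0.0376 to 0.25, values that were not tested.

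Thus 2 of the 9 tested genes were higher and 4 lower, against 23.1% and 36.5% of all genes, so the counts stood near the background. The median of all genes was -0.15 on this scale, and *Hmgb1*, *Hmgn1* and *Hmgb3* lay more than 1 below it. Summed T cell markers were higher in *Aire*-high cells in 6 of 7 libraries (0.135 to 1.81 against 0.162 to 0.465 UMIs per 10000), and 8 markers of myeloid and B cells summed to 0.681 to 9.88 against 0.197 to 0.654, with 3 to 8 of them above 0. Fibroblast markers were lower in *Aire*-high cells in 6 of 7 libraries, at a summed 0.24 to 1.8 against 1.99 to 4.57, and higher at week 6 after anti-RANKL, at 5.02 against 3.99. With cells holding a T cell marker UMI left out, the same number of 6 genes was called, with *Hmgb1* at -1.42 and *Hmgn3* at 1.17. *Aire*-high cells were also deeper, at a median of 7653 to 17658 UMIs against 4453 to 13457. The part of depth and of the myeloid, B cell and fibroblast markers in these differences was not tested.

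**Figure D3:**
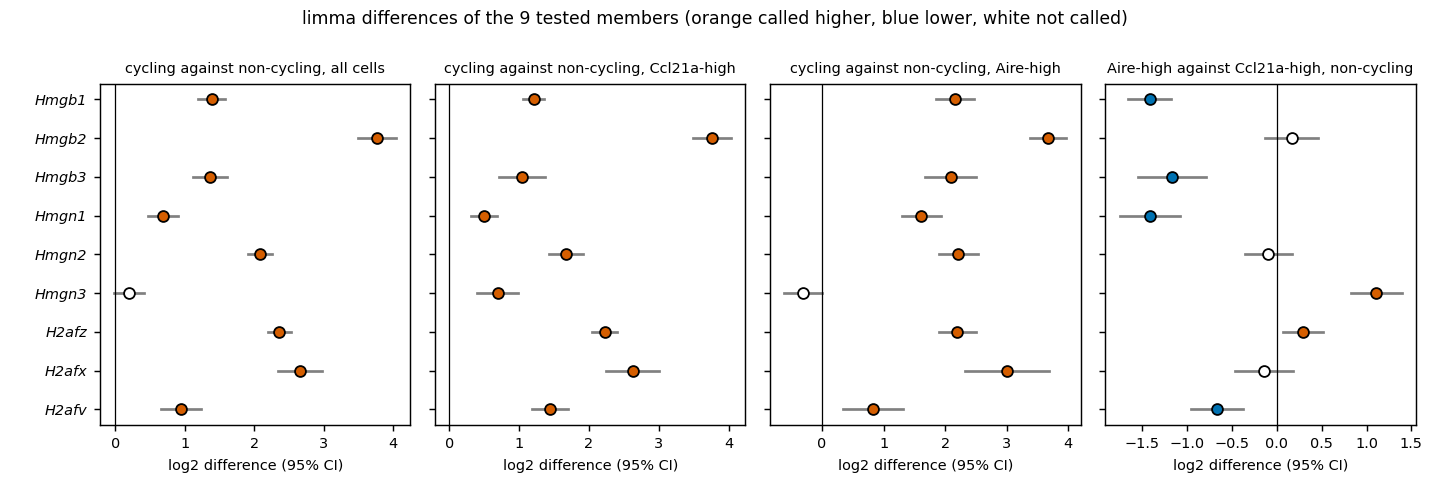
Log2 differences of the 9 tested genes (points) with 95% intervals (lines) from limma, for cycling against non-cycling cells of all classes, within *Ccl21a*-high and within *Aire*-high cells, and for *Aire*-high against *Ccl21a*-high non-cycling cells. *Hmgb2* lies between 3.68 and 3.77 in the 3 cycling panels, and *Hmgb1* and *Hmgn1* at -1.42 in the last.

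Cycling was then compared within each class, to separate the cell cycle from the kind of cell. Of the *Aire*-high cells, 317 were cycling, and of the *Ccl21a*-high cells 110. Within *Aire*-high cells (5 libraries, without weeks 2 and 4 after anti-RANKL, which had 4 and 0 cycling cells) 8 of 9 genes were higher and none lower, against 15.4% and 12.9% of 5408 genes. Of the 8, *Hmgb3* passed the filter on low levels through its level in cycling cells, so the count is not independent of the filter. Within *Ccl21a*-high cells (7 libraries, 5 to 35 cycling cells each) all 9 were higher, against 6.95% of 5597 genes, while 5.9% of all genes were lower. *Hmgb2* rose by 3.68 ± 0.13 in *Aire*-high and 3.76 ± 0.13 in *Ccl21a*-high cells, *H2afz* by 2.19 ± 0.13 and 2.22 ± 0.09, and *H2afx* by 3.00 ± 0.30 and 2.62 ± 0.18. These 3 genes rose in both classes by more than 2 on the log2 scale. In *Ccl21a*-high cells, without cells above 2 times the median UMIs, *Hmgb3* (0.63, adjusted p = 0.258) and *Hmgn1* (0.55, adjusted p = 0.0528) were not called in the 6 libraries left. With cycle genes counted at 2000 UMIs, which left 4 libraries, *Hmgn1* (0.44, adjusted p = 0.184) and *Hmgn3* (0.67, adjusted p = 0.0761) were not.

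*Hmgb1* rose in *Aire*-high cells from between 2.58 and 4.88 to 16.4 in the Aire trace library, 10.3 and 14.3 in the controls, 16 at week 6 and 17.3 at week 10 after anti-RANKL, a log2 difference of 2.16 ± 0.13 (adjusted p = 4.17e-05). In *Ccl21a*-high cells it rose from between 7.95 and 11.1 to between 17.7 and 26.7, a difference of 1.21 ± 0.07 (adjusted p = 9.13e-09). *Hmgn1* rose in *Aire*-high cells to between 4.86 and 7.42 (1.61 ± 0.14) and in *Ccl21a*-high cells to between 7.43 and 11.2 (0.50 ± 0.09). *Hmgb3* rose by 2.09 ± 0.18 and 1.04 ± 0.16, *Hmgn2* by 2.22 ± 0.14 and 1.66 ± 0.11 and *H2afv* by 0.83 ± 0.21 and 1.45 ± 0.12, in *Aire*-high and *Ccl21a*-high cells. In non-cycling *Aire*-high cells *Hmgb3* was at 0.134 and 0.0943 in the controls. Its mean there over the 5 libraries lay under the filter limit of 0.2. In cycling *Aire*-high cells it was at 0.761 to 1.35, and only through these was it tested. *H2afv* was higher in 4 of 5 libraries in *Aire*-high cells, with overlapping ranges, and lower in the Aire trace library (1.49 against 1.7). Its call there (adjusted p = 0.0221) was lost without either control or the week 10 anti-RANKL library, with adjusted p of 0.055 to 0.0876. It was also lost without cells holding a T cell marker UMI (adjusted p = 0.0913), without the deepest cells (adjusted p = 0.272) and with *Aire* above 2 and *Ccl21a* above 5 (adjusted p = 0.0531). Each of these alternatives left 4 of the 5 libraries. *Hmgn3* stood at 1.22 to 2.95 in cycling *Aire*-high cells and was not called there (-0.31 ± 0.13, adjusted p = 0.125). After quantile normalization it was called lower at -0.43 (adjusted p = 0.0415), and without the deepest cells it was at 0.03 (adjusted p = 0.905). In *Ccl21a*-high cells it rose to between 1.67 and 3.62 in 7 of 7 libraries (0.69 ± 0.14, adjusted p = 0.0034).

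The difference between these differences was tested in the 5 libraries with at least 5 cells in each of the 4 classes. *Hmgn1* (1.11 ± 0.19, adjusted p = 0.0056) and *Hmgb1* (0.93 ± 0.18, adjusted p = 0.0109) rose more with cycling in *Aire*-high than in *Ccl21a*-high cells, and *Hmgn3* less (-1.09 ± 0.29, adjusted p = 0.0423). *Hmgb3* did not pass (1.06 ± 0.31, adjusted p = 0.0676), but was called under 5 alternatives at 1.08 to 1.37 (adjusted p = 0.00947 to 0.0401), namely summed UMIs, a minimum of 4000 UMIs, at least 5 cycle genes, quantile normalization and without the week 6 anti-RANKL library. Of all 5666 genes, 1.59% were called higher and 1.91% lower, with a median of 0.12. *Hmgb2* (0.01, 95% interval -0.54 to 0.56), *H2afz* (-0.04, -0.43 to 0.36) and *H2afx* (0.23, -0.51 to 0.97) were not called. *H2afx* was at -1.09 without cells holding a T cell marker UMI, -0.76 without the deepest cells and -0.74 with stricter limits on *Aire* and *Ccl21a*, also not called. Under these 3 alternatives fewer than 5 libraries had enough cells, so the libraries changed along with the cells. None of the 3 calls was left without cells holding a T cell marker UMI, without the deepest cells, with stricter limits on *Aire* and *Ccl21a*, without the week 10 control or without the week 10 anti-RANKL library. The adjusted p of *Hmgn1* was then 0.0557 to 0.178, with a difference of 0.98 to 1.24. Without the Aire trace library, *Hmgn1* was still called, *Hmgb1* (adjusted p = 0.0641) and *Hmgn3* (adjusted p = 0.191) were not, and without the week 2 control *Hmgn3* was not (adjusted p = 0.11).

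**Figure D4:**
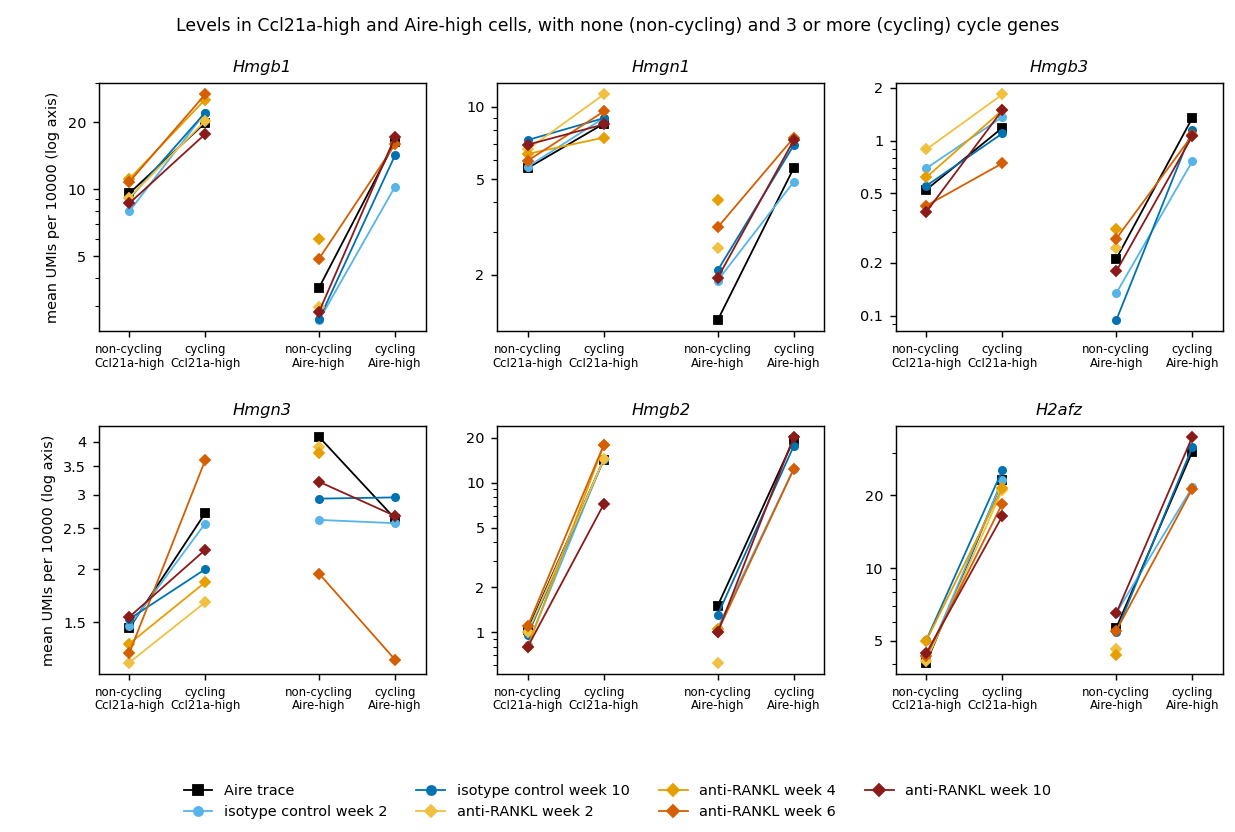
Mean UMIs per 10000 (log axis) of 6 genes in *Ccl21a*-high and *Aire*-high cells, non-cycling and cycling, with 1 line per library and class where both have at least 5 cells. *Hmgb1* and *Hmgn1* start lower in *Aire*-high cells and rise more steeply there, *Hmgn3* starts higher, and *Hmgb2* and *H2afz* rise in both.

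The treatment comparison asked whether the genes differ after anti-RANKL within a class of cells. In non-cycling *Ccl21a*-high cells none of the 9 tested genes was called (4 anti-RANKL against 2 isotype control libraries), and 0% of 5643 genes were called higher and 0% lower by limma, with 417 genes and none of the 9 at an unadjusted p under 0.05. Without the week 10 anti-RANKL library 36 genes were called, again none of the 9. *Hmgb1* was at 8.64 to 11.1 against 7.95 and 9.06 (0.22, 95% interval -0.14 to 0.57), and *Hmgn1* at 5.96 to 6.94 against 5.62 and 7.26 (0.02, -0.33 to 0.37). The intervals of the 9 genes all held 0, and in none of them did the anti-RANKL and control values stand apart, against 6.56% of all genes with the anti-RANKL libraries above both controls and 10.3% below. In non-cycling *Aire*-high cells (16 to 272 cells a library) again none was called, with 0% of 5393 genes higher and 0% lower, and 98 genes and none of the 9 at an unadjusted p under 0.05. *Hmgb1* there was at 2.81 to 5.99 after anti-RANKL and at 2.58 and 2.61 in the controls (0.59, -0.16 to 1.34). *Hmgb3* was at 0.179 to 0.313 against 0.134 and 0.0943 (0.71, -0.04 to 1.46). The treated values of both lay above the controls. *Hmgb2*, at 0.625 to 1.05 against 1.06 and 1.3, and *H2afx*, at 0.175 to 0.302 against 0.308 and 0.364, lay below them. The other 5 tested genes overlapped. Over all 5393 genes, 4.39% had all anti-RANKL libraries above both controls and 6.77% had all below. The intervals of all 9 genes held 0.

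Over all non-cycling cells, by contrast, libraries stood far apart. *Hmgb1* was at 4.84, 5.13 and 5.48 in the week 2 control, the week 10 control and the week 10 anti-RANKL library, and at 8.04 to 10.6 in the other 4. *Hmgn1* was at 3.31, 3.93 and 3.95 in the first 3 and at 5.02 to 6.47 in the others, and *Hmgn3* at 2.35, 2.74 and 2.69 against 1.46 to 1.81. In the same 3 libraries *Aire*-high cells were 140, 272 and 245 of the non-cycling cells and *Ccl21a*-high cells 106, 141 and 203. In the other 4 there were 16 to 55 *Aire*-high and 220 to 758 *Ccl21a*-high cells. Cells with neither *Aire* nor *Ccl21a* above its limit numbered 284, 322 and 333 in the first 3 libraries and 211 to 377 in the other 4. In them *Hmgb1* spanned 4.78 to 9.65 and *Hmgn1* 3.15 to 6.82 over the 7 libraries. The part of the class shares in the differences between libraries was not tested. Within *Ccl21a*-high cells *Hmgb1* spanned 7.95 to 11.1 and *Hmgn3* 1.2 to 1.54 over the 7 libraries. *Hmgb1* was lowest in the same 3 libraries in *Ccl21a*-high cells (7.95, 9.06 and 8.64 against 9.18 or more) and in *Aire*-high cells (2.58, 2.61 and 2.81 against 2.96 or more). *Hmgn3* was highest in them in *Ccl21a*-high cells only. *Hmgn1* was lowest in the Aire trace library in both classes (5.55 and 1.3). Within *Aire*-high cells the spread was wider, with *Hmgb1* at 2.58 to 5.99, *Hmgn1* at 1.3 to 4.11 and *Hmgn3* at 1.95 to 4.1.

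**Figure D5:**
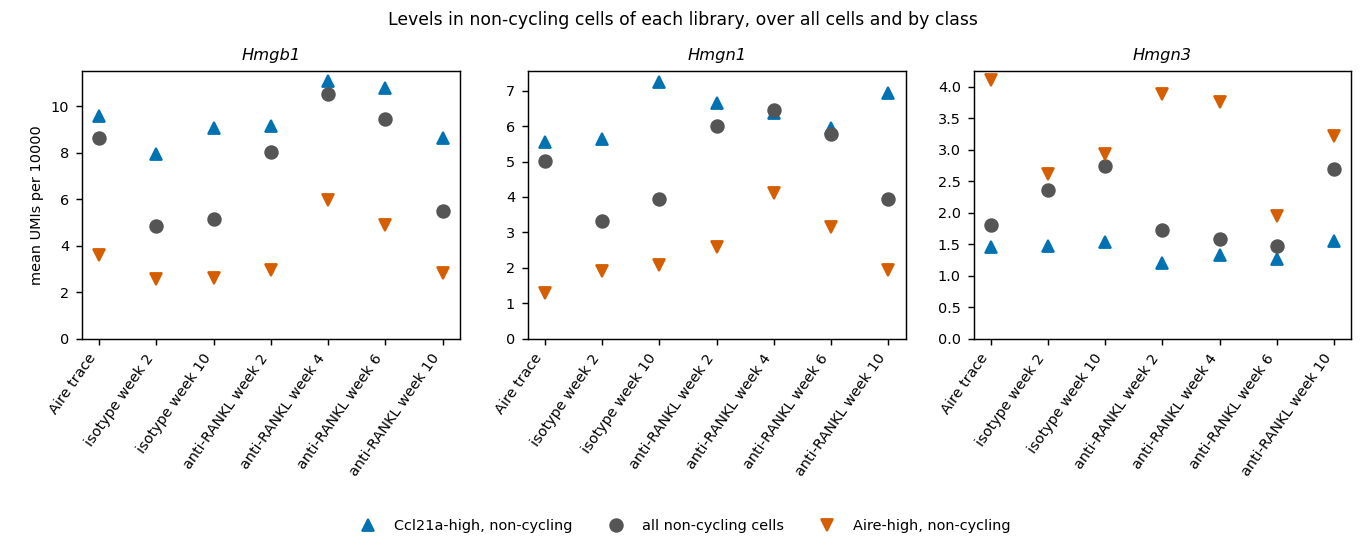
Mean UMIs per 10000 (linear axis from 0) of *Hmgb1*, *Hmgn1* and *Hmgn3* in the non-cycling cells of each library, over all of them (circles) and in *Ccl21a*-high (up triangles) and *Aire*-high cells (down triangles). *Hmgb1* over all non-cycling cells lies at 4.84 to 5.48 in both controls and at week 10 after anti-RANKL, nearer to their *Aire*-high cells than in the other 4 libraries.

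Related chromatin genes were followed in 4 lists. Of the histone chaperones and exchange factors, which load and remove histones, 12 of 19 tested genes were higher in cycling cells and none lower, with a median of 0.68 against -0.05 for all genes. Over all genes 21.1% were higher and 26% lower in this comparison, against which each list's count is to be read. *Anp32e*, a chaperone that removes H2A.Z, rose by 1.43 ± 0.11 (adjusted p = 2.18e-06) and *Nap1l1*, a nucleosome assembly protein, by 1.37 ± 0.11 (adjusted p = 2.8e-06). Of the other histone variants and linker histones, 7 of 8 were higher, led by *Cenpa*, the histone H3 variant of centromeres (2.70 ± 0.17), and *H1fx* (2.00 ± 0.20), while *H2afj* fell by 0.42 on the log2 scale (adjusted p = 0.00811). Only 6 of these 8 passed the filter in the comparisons without cycling cells, so the count holds genes that passed through their level in cycling cells. Of the other HMG box and HMG genes, 3 of 6 tested were higher, with *Ssrp1*, a subunit of the histone chaperone FACT, at 0.96 ± 0.10 and *Hmgn5* at 0.73 ± 0.13. Of 63 replication-dependent histone genes listed, only 5 were tested. Their messages are known to lack a poly(A) tail, and poly(A) RNA was measured here. Of these 5, 2 were higher, *Hist1h2ap* by 3.97 ± 0.29 and *Hist1h4i* by 1.30 ± 0.15. Only 3 genes of this list passed the filter in the comparisons without cycling cells. The others passed through their level in cycling cells, so the count is not independent of the filter.

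Between *Aire*-high and *Ccl21a*-high non-cycling cells, 12 of 19 chaperones and exchange factors were lower and 1 higher (median -0.45 against -0.15 for all genes, of which 36.5% were lower and 23.1% higher), with *Anp32a* at -1.89 ± 0.24 and *Ptma*, prothymosin alpha, at -0.89 ± 0.10, and *Yeats4* higher by 0.61 ± 0.13. Of the other HMG genes, 5 of 6 were lower, with *Tfam*, which packs mitochondrial DNA, at -0.92 ± 0.12 and *Ubtf*, a factor of ribosomal RNA genes, at -0.75 ± 0.11. Of 6 other variants, 3 were lower, among them *H2afy2* (-0.89 ± 0.12) and *H2afy* (-0.63 ± 0.09), which encode macroH2A, and *H1f0* was higher (0.38 ± 0.10). Of 3 replication-dependent histone genes, *Hist3h2a* was lower (-0.66 ± 0.11). The counts of these last 2 lists stood near the share over all genes. In the test of the difference between the cycling differences, *Ptma* (0.95 ± 0.16, adjusted p = 0.00536), *Npm1* (0.82 ± 0.16, adjusted p = 0.0121) and *Ssrp1* (0.96 ± 0.26, adjusted p = 0.0468) were called higher. In all, 3 of 19 chaperones and exchange factors (*Ptma* and *Npm1* with the largest differences) and 1 of 6 other HMG genes (*Ssrp1*) were called, with none lower, against 1.59% and 1.91% of all genes, and none of 8 other variants and none of 7 replication-dependent histone genes was called. Without cells holding a T cell marker UMI, and without the deepest cells, no gene of any list was called higher. Both alternatives also left fewer libraries. Over all genes, the alternatives of this test gave from 1 to 550 calls, so the losses are not read as a result about the lists.

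Likeness of pattern was measured as Pearson's r of the log2 level over 21 profiles (7 libraries with 3 grades of cycle genes each), among 5755 genes. The profiles share libraries and the same grading, so r is given as a description. Outside the 10 genes and the 8 cycle genes, *Hmgb2* was most like *Gmnn* (r = 0.992), *Cdca3* (0.989), *Hmmr* (0.989), *Cenpm* (0.988) and *2810417H13Rik* (0.987). *H2afz* was most like *Spc25* (0.986), *Cenpa* (0.985), *Tpx2* (0.984), *Ran* (0.983) and *Cks2* (0.981). Among the 10 genes, *Hmgb2* had r = 0.983 with *H2afz*, 0.967 with *H2afx* and 0.96 with *Hmgn2*, but 0.821 with *Hmgb1*, 0.664 with *Hmgn1* and 0.279 with *Hmgn3*.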

How the data were processed

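Cells of 7 libraries were EpCAM+ CD45- and sorted from pooled thymi. Per the file headers and the methods, the authors sequenced droplet libraries on a HiSeq 4000, aligned and counted them with Cell Ranger 2.2.0 on mm10, with the ZsGreen transcript added for the Aire trace library, and filtered and normalized them in Seurat 2.3.4. The deposited values are natural log values, ln(1 + UMIs of the gene per 10000 UMIs of the cell), although the methods name a scale factor of 1000. Whole UMI counts of each cell were worked back from these values within a tolerance of 0.001. The counts served only for levels, shares and thinning, and no count model was used. Tables that combine libraries were not used here.

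Levels were averaged over cells in Python 3.11.15. Each library and class gave 1 profile, and limma 3.58.1 (R 4.3.3), with an intensity trend and the library as a block, tested log2(level + 0.1) over all genes listed in all libraries with a mean of at least 0.2 UMIs per 10000. Fold changes on this scale understate those of low genes. P-values were adjusted over all genes tested (Benjamini-Hochberg, threshold 0.05, two-sided). A class needed 10 cells in a library, or 5 within *Aire*-high and *Ccl21a*-high cycling comparisons. The library is the replicate and cells are not, and each library is 1 pool. The 2 isotype controls and the 4 anti-RANKL libraries differ in week and age, so their p-values measure that spread too. Doublets were not removed, since the methods name no step against them and no caller was run here. The test was checked on simulated data with known changes, for cycling against non-cycling cells and for the treatment in *Ccl21a*-high cells. The changed genes there had means of at least 1 UMI per 10000. Lower genes and the other comparisons were not covered by this check.

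The 10 genes, the 4 lists and the tests were chosen with earlier results of these data known. Of each list, the 2 genes with the largest called difference in each direction could be named, and for *Hmgb2* and *H2afz* the 5 most similar genes outside the 10 genes and the 8 cycle genes. Cell type markers were used as lists. Alternatives changed the pseudocount, the filter, the normalization, the weighting of cells, the depth limits, the cell classes, the block and the libraries. Median depth of 4299.5 to 16809 UMIs a cell limits the detection of cycle genes.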

Additional observations from a re-analysis of the deposited data

Results flagged for a closer look

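In 3 genes the cycling difference differed between *Aire*-high and *Ccl21a*-high cells by the interaction test (limma over 5666 genes), on the log2 scale by 0.93 for *Hmgb1* (adjusted p = 0.0109), 1.11 for *Hmgn1* (adjusted p = 0.00557) and -1.09 for *Hmgn3* (adjusted p = 0.0423). These calls depend on 5 to 21 cycling *Ccl21a*-high cells in 4 of the 5 libraries.

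Among the 4 anti-RANKL libraries, which also differ in week and age, 1 library stood apart from the others by Dixon's test in 4 of 50 sets of values. Chance alone gives about 1 in 20. *Hmgb2* in non-cycling cells was at 0.812 UMIs per 10000 at week 4 against 1.07 to 1.08 in the other 3 libraries. In *Aire*-high non-cycling cells it was at 0.625 at week 2 (38 cells) against 0.995 to 1.05. In cells with 1 to 2 cycle genes, week 10 was highest for *Hmgn3* (3.16 against 1.69 to 1.76) and for *H2afz* (9.31 against 5.4 to 5.66).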

How the results depend on the processing

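Of 143 recomputed counts of called genes, 128 stayed within 1.5 times the reported count. Of 1280 recomputed differences of single genes, none of those called changed sign, 68 lost the call and 15 gained one. Cycling against non-cycling cells gave 8 or 9 genes under all alternatives, *Aire*-high against *Ccl21a*-high cells 5 to 7, cycling within *Aire*-high and within *Ccl21a*-high cells 7 to 9, and both treatment comparisons 0, also with weeks 2 and 10 paired as a block. For 1 to 2 cycle genes against none, the 4 genes called became 2 without cells above 2 times the median UMIs, 8 with cycle genes counted at 2000 UMIs and 0 without the replicate block. Counting at 2000 UMIs also moved cells that are cycling at full depth into the lower grades. The difference of the cycling differences (3 genes) gave 0 without cells holding a T cell marker UMI, 0 without the deepest cells, 0 with *Aire* above 2 and *Ccl21a* above 5, 1 without the replicate block and 0 to 4 with 1 library left out. The first 3 of these alternatives also left fewer libraries than the reported test. For replication genes, the 4 genes called became 0 without the deepest cells, 2 without the replicate block and 1 to 4 with 1 library left out, 2 of them without week 2 after anti-RANKL. The cause of these changes was not tested. That comparison with genes counted at 2000 UMIs was not run, because too few cells were left in the class.

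The library block is part of the reported tests, since both classes of a comparison lie in the same library. Over all genes, the calls for cycling ran from 1541 without the deepest cells to 5510 with no filter, where 28.9% of the calls were higher against 44.8% of the 2709 reported. The corresponding ranges were 2848 to 6137 for *Aire*-high against *Ccl21a*-high cells (3404 reported), 1 to 1166 for 1 to 2 cycle genes (928 reported), 693 to 2523 within *Aire*-high cells (1527), 194 to 1160 within *Ccl21a*-high cells (719), where 73.7% of the calls were higher without the deepest cells against 54.1%, 1 to 550 for the difference of the differences (198) and 119 to 829 for replication genes (644). *Hmga1* was kept out of the reported tests by the filter on low levels, and no alternative value is given for it.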

Other observations

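Cycling cells that were neither *Aire*-high nor *Ccl21a*-high (242 cells, 6 to 78 a library) entered the comparison over all cells only. *Hmgb2* was at 11.4 to 30.9 UMIs per 10000 in them, *H2afz* at 18.6 to 34.5 and *Hmgb1* at 16.2 to 33.7. *Hmgn1* was at 6.71 to 10.6, against 7.43 to 11.2 in cycling *Ccl21a*-high cells and 4.86 to 7.42 in the cycling *Aire*-high cells of the 5 libraries compared.

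The 228 cells with a *Ptprc* UMI and at least 2000 UMIs (11 to 69 a library) were used in no comparison. *Hmgn1* was at 2.25 to 4.63 in them, *H2afx* at 0.542 to 1.27 and *Hmgb2* at 1.22 to 6.06, with the week 2 control highest for *Hmgb2*.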
